A study of Homo sapiens with 9 samples.

Results

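Oxidative phosphorylation subunits are the nuclear-encoded proteins of the mitochondrial respiratory chain (complexes I to IV) and of ATP synthase (complex V). They were chosen by symbol from transcript clusters that carry 1 gene symbol (NDUFA, NDUFB, NDUFC, NDUFS and NDUFV genes, SDHA to SDHD, UQCR, COX4 to COX8 and ATP5 genes, without 2 pseudogenes and 1 non-coding gene), and the brightest cluster stood for each gene. The rule gave 78 of the 18417 genes named on the array, of which 33 belong to complex I, 3 to complex II, 7 to complex III, 17 to complex IV and 18 to complex V. Of these, 73 passed the filter on dim genes. COX6B2, COX7A1, COX7B2, COX8C and ATP5MGL did not pass it in any array and were not tested. SDHB has no single-symbol cluster in the annotation used here, and the 13 subunits encoded in mitochondrial DNA were not analysed here.

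The series profiled NCCIT, an embryonal carcinoma line of human origin whose cells resemble pluripotent stem cells and, in non-adherent dishes, gather into embryoid bodies, in which differentiation starts. The 9 arrays comprised embryoid bodies with 50 mM ethanol plus FA, with 50 mM ethanol alone, with FA alone and without addition, each at day 7 and at day 21, and undifferentiated NCCIT cells. Every condition came from this 1 line and had 1 array, what FA stands for is not given in the labels, and the stated question was which regulators ethanol changes in embryoid bodies. Array medians lay between 7.67 and 7.76 on the log2 scale, and the ethanol array at day 7 correlated slightly less with its day (mean r 0.990) than the other day 7 arrays (0.994 to 0.995). Relative to undifferentiated cells, pluripotency markers passed the test as lower for 3 of 11 genes at day 7 and for 10 of 11 at day 21. Of all genes tested, 13.9% and 21.2% were lower. Among neural markers, 1 of 7 was lower at day 7 and 5 of 7 were higher at day 21, as were 2 of 4 mesenchyme markers. The share of all genes higher at day 21 was 16.6%.

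The respiratory chain moves electrons from NADH (through complex I) and from succinate (through complex II) to coenzyme Q, then through complex III and cytochrome c to oxygen at complex IV. Complexes I, III and IV pump protons across the inner mitochondrial membrane, and complex V uses the return flow to make ATP. Pluripotent cells are known for relying largely on glycolysis, and the nuclear genes of the chain are known to share regulators such as NRF1, GABP (an ETS-family factor), YY1 and the PGC-1 coactivators.

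Subunit transcripts were lower in embryoid bodies than in undifferentiated cells across all 5 complexes. In the additive limma fit, 41 of the 73 tested members fell and 1, NDUFS4, rose (Benjamini-Hochberg adjusted p below 0.05 over 12254 genes). Over all genes tested, 17.2% were lower and 11.0% were higher, so the members' share of lower calls, 56.2%, stood above that background. The members' median log2 difference was -0.34, against -0.05 for all genes, and 69 of 73 members lay below 0. In 53 members (72.6%) every one of the 8 embryoid body arrays lay below the undifferentiated array, which held for 26.9% of all genes. The changes were small, with a median fall of 21% and no member halved. All these differences rest on 1 undifferentiated array, whose spread was taken to be that of the other arrays, and in bulk RNA fewer cells of a type and less RNA per cell cannot be told apart.

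**Figure D1:**
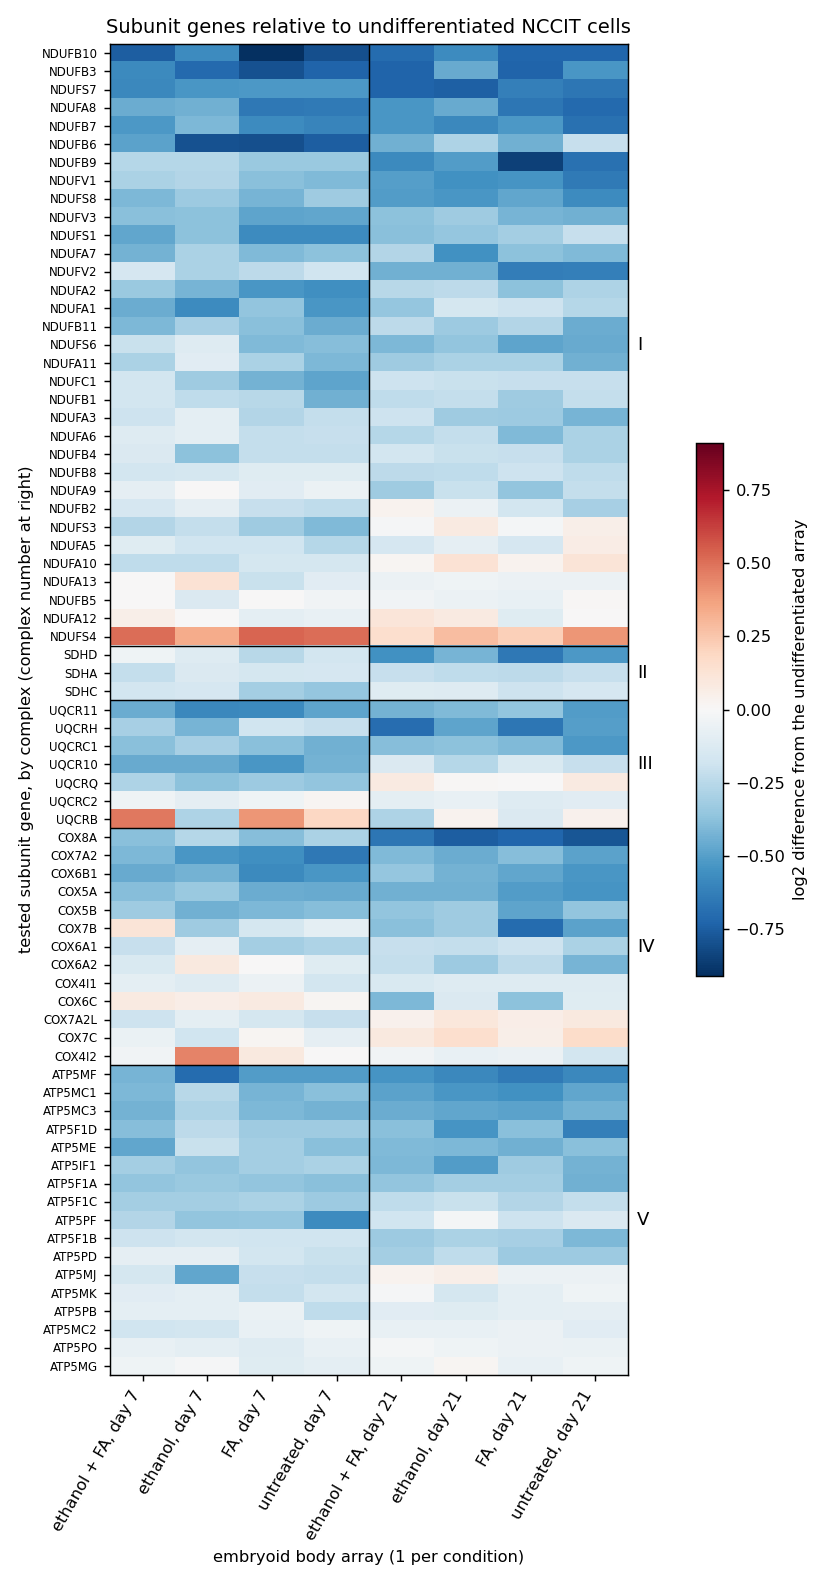
Log2 difference of each tested subunit gene (rows, grouped by complex, complex number at right) from the undifferentiated array in each of the 8 embryoid body arrays (columns). Blue is lower and red is higher than in undifferentiated cells; most rows are blue in all columns, while NDUFS4 is red in all 8.

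Promoter windows are shown for the 4 members that carry the patterns described below: NDUFA8, among the largest decreases with differentiation, NDUFS4, the single increase, and UQCRQ and COX8A, the members most raised and most lowered at day 21 relative to day 7. Each window runs from 250 bases before to 50 bases after the annotated gene start (RefSeq, GRCh38.p14) and reads 5′ to 3′ on the gene's strand. Capitals mark matches, on either strand, to 4 motifs: the NRF1 palindrome GCGCATGCGC, the NRF1 core TGCGCA (which overlaps the palindrome in NDUFA8), the ETS core CCGGAAG and the YY1 core AAGATGGC. NDUFA8 lies at chr9:122159730-122160029 on the minus strand, NDUFS4 at chr5:53560389-53560688, UQCRQ at chr5:132866392-132866691 and COX8A at chr11:63974370-63974669, these 3 on the plus strand.
NDUFA8: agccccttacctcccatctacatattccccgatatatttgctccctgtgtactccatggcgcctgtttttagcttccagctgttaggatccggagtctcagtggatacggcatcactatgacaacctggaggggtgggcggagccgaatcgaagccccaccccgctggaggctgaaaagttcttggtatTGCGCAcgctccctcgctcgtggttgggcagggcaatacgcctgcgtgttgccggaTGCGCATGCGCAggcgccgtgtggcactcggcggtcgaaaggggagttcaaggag
NDUFS4: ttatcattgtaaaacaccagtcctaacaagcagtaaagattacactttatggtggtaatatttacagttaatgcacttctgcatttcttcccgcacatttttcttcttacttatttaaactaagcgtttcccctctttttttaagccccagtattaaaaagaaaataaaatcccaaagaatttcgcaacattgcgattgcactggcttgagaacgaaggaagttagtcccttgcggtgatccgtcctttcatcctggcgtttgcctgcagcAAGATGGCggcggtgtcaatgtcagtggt
UQCRQ: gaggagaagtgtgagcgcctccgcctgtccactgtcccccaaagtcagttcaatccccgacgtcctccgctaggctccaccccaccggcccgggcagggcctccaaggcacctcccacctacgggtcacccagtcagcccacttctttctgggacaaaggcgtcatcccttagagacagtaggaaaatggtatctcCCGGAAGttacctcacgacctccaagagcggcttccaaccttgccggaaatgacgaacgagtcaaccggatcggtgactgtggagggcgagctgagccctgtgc
COX8A: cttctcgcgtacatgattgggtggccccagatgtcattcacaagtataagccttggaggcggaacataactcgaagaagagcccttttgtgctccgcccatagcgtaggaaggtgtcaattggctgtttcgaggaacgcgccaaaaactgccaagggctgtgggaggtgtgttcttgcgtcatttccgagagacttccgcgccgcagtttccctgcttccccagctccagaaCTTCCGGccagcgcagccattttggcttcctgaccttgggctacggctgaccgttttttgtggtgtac

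The NDUFA8 window held the NRF1 palindrome and 3 matches to the core, the NDUFS4 window 1 YY1 core just after the gene start, and the UQCRQ and COX8A windows 1 ETS core each, in the antisense direction in COX8A. Over the 66 members with a window, the NRF1 core was found in 28.8%, the palindrome in 6.06%, the ETS core in 28.8% and the YY1 core in 15.2%. Over 15843 protein-coding genes these shares were 10.8%, 1.75%, 14.2% and 3.91%. At least 1 of the 4 motifs was in 57.6% of member windows, against 25.8% of protein-coding windows. Of members that fell with differentiation 30.6% of 36 held the NRF1 core, against 25.9% of 27 tested members that did not fall; the shares were 8.33% against 3.70% for the palindrome, 27.8% against 33.3% for the ETS core and 13.9% against 18.5% for the YY1 core. By day, the NRF1 core was in 8.33% of 12 windows of members higher at day 21 and in 35.7% of 14 windows of members lower then, with 0% and 7.14% for the palindrome, 41.7% and 28.6% for the ETS core and 8.33% and 28.6% for the YY1 core. NDUFB10, the member with the largest decrease, had none of the 4 in its window. These are letter matches in short windows, given as a description with no test.

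Complex I oxidises NADH, and is the largest of the complexes. Of its 33 tested members 22 fell (66.7%, against 17.2% of all genes) and 1 rose, with a median of -0.37. Differences between the complexes were not tested. NDUFB10, an accessory subunit of the membrane arm, had log2 values of 9.17, 9.35, 9.01 and 9.12 in day 7 embryoid bodies with ethanol plus FA, ethanol, FA and no addition, and of 9.22, 9.35, 9.20 and 9.20 in the day 21 ones. The undifferentiated array had 9.92, above all 8. NDUFB10 fell by 0.74 ± 0.09 (log2, SE of the fit over 9 arrays, limma adjusted p = 0.00154), that is, it fell by 40%.

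NDUFA8, an accessory subunit with a paired-cysteine fold, read 9.72, 9.73, 9.52 and 9.53 at day 7 and 9.64, 9.71, 9.51 and 9.46 at day 21 in the same order of conditions, against 10.17 in undifferentiated cells. It fell by 0.66 ± 0.08 (limma adjusted p = 0.00142), and no embryoid body array reached the undifferentiated value. NDUFB3, another membrane-arm subunit, ranged from 7.60 to 7.93 in the 8 embryoid body arrays, against 8.39 in undifferentiated cells, and fell by 0.64 ± 0.12 (limma adjusted p = 0.00626). NDUFB7 ranged from 8.72 to 8.99, against 9.40, and fell by 0.61 ± 0.10 (limma adjusted p = 0.00352).

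The subunits that carry the redox centres of complex I were among those that fell. NDUFV1, which binds the flavin and takes electrons from NADH, fell by 0.51, and its iron-sulfur partners NDUFV2 and NDUFS1 fell by 0.42 and 0.38. NDUFS7 and NDUFS8, which hold the iron-sulfur clusters near the coenzyme Q site, fell by 0.57 and 0.44. NDUFS3, a core subunit without a redox centre, did not pass (-0.16, limma adjusted p = 0.231). Among members close to 0 were NDUFB5 (-0.03), NDUFA10 (-0.03), NDUFA12 (-0.06) and NDUFA13 (-0.07). NDUFB5 read 12.50 to 12.64 in embryoid bodies, against 12.63 in undifferentiated cells, so the groups overlapped.

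NDUFS4, an accessory subunit of the NADH-oxidising module whose loss causes Leigh syndrome in people, went the other way. It read 9.73, 9.56, 9.75 and 9.73 at day 7 in embryoid bodies with ethanol plus FA, ethanol, FA and no addition, and 9.37, 9.50, 9.44 and 9.62 at day 21. All 8 lay above the 9.22 of undifferentiated cells. The difference was 0.43 ± 0.11 (limma adjusted p = 0.023), larger at day 7 (0.53) than at day 21 (0.32, limma adjusted p = 0.0599), and the level at day 21 was lower than at day 7 by -0.21 (limma adjusted p = 0.0285). A second, dim cluster of NDUFS4 overlapped between the groups (5.34 to 6.24 in embryoid bodies, against 5.65). With the mean of both clusters the difference was 0.33 and did not pass (adjusted p = 0.221), and without the FA array at day 7, the untreated day 7 or the untreated day 21 array the adjusted p was 0.0528, 0.0599 and 0.0718.

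Complex II, the succinate dehydrogenase that also serves the citric acid cycle, was represented by SDHA, SDHC and SDHD. SDHD, a membrane anchor, fell by 0.36 ± 0.09 (limma adjusted p = 0.0188). SDHC, the other anchor, had a difference of -0.26 (adjusted p = 0.0516) and SDHA, the flavoprotein, of -0.17 (adjusted p = 0.134). The brightest clusters of SDHC, SDHD, NDUFV2 and ATP5MK carry numbers that lie among clusters of another chromosome, where a copy of the gene may be read. With the cluster numbered among those of the gene's own chromosome, the differences were -0.35 for SDHC (adjusted p = 0.105), -0.43 for SDHD (0.0244), -0.40 for NDUFV2 (0.0203) and -0.30 for ATP5MK (0.0204), which then passed. Clusters that the annotation shares between SDHA and its pseudogenes were higher in embryoid bodies by 0.28 and 0.25, opposite in sign to SDHA's own cluster.

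In complex III, which passes electrons from coenzyme Q to cytochrome c, 3 of 7 members fell (42.9%, against 17.2% of all genes). The median was -0.34. UQCR11 fell by 0.50, UQCRC1, a core protein, by 0.44 and UQCR10 by 0.34. The other core protein, UQCRC2, had a difference of -0.05, and UQCRH, the hinge protein of cytochrome c1, of -0.35 (limma adjusted p = 0.0589). UQCRB, which helps form the coenzyme Q site, was the least steady member. It read 8.40, 7.64, 8.32 and 8.11 at day 7 and 7.64, 7.95, 7.79 and 7.96 at day 21 in embryoid bodies with ethanol plus FA, ethanol, FA and no addition, against 7.92 in undifferentiated cells, and its SE of 0.26 exceeded its difference of 0.07.

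In complex IV, cytochrome c oxidase, 5 of 13 tested members fell (38.5%, against 17.2% of all genes), with a median of -0.27. COX7A2 read 9.77 to 10.03 in embryoid bodies, against 10.42 in undifferentiated cells, and fell by 0.57 ± 0.08 (limma adjusted p = 0.00271). COX8A, COX6B1, COX5A and COX5B fell by 0.54, 0.53, 0.48 and 0.40. COX7C (0.03), COX7A2L (-0.03), COX6C (-0.04) and COX4I1 (-0.12) did not pass, and the sign of COX7C turned to -0.01 when arrays were centred on their medians.

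In complex V, 10 of 17 tested members fell (58.8%, against 17.2% of all genes), with a median of -0.28. In 15 of 17 (88.2%, against 26.9% of all genes) all 8 embryoid body arrays lay below the undifferentiated one. ATP5MF, a subunit of the membrane sector, read 10.79, 10.51, 10.70 and 10.70 at day 7 and 10.67, 10.62, 10.57 and 10.62 at day 21 in embryoid bodies with ethanol plus FA, ethanol, FA and no addition, against 11.21 in undifferentiated cells. It fell by 0.60 ± 0.11 (limma adjusted p = 0.00617), with no overlap. The catalytic subunits alpha and beta, ATP5F1A and ATP5F1B, fell by 0.38 and 0.27, and gamma and delta, ATP5F1C and ATP5F1D, by 0.28 and 0.45. ATP5IF1, which inhibits the enzyme when it would run backwards and is not a subunit of the proton path, fell by 0.36. ATP5PO (-0.08), ATP5MG (-0.07) and ATP5PB (-0.14), of the stalks and the membrane sector, did not pass.

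Genes with alternative isoforms did not all behave alike. The c-ring protein of ATP synthase is made from 3 genes that encode the same mature protein: ATP5MC1 and ATP5MC3 both fell by 0.42, while ATP5MC2 had a difference of -0.07 (limma adjusted p = 0.625). ATP5MC3 exceeded the filter of 7.713 in the undifferentiated array alone (7.89, against 7.40 to 7.61 in embryoid bodies). It was tested only through the group where it is high, so its call, among the 41 lower, is not independent of the filter. COX4I1, the common form of subunit 4, read 9.55 to 9.67 in embryoid bodies, against 9.72 in undifferentiated cells. COX4I2, the form known to respond to low oxygen in lung, read 7.19 to 7.81, against 7.36, and had a difference of 0.00. COX6A1 (-0.27, adjusted p = 0.0704) and the muscle form COX6A2 (-0.21, adjusted p = 0.235) did not pass. COX6B1 and COX7A2 fell, whereas the testis form COX6B2 and the muscle form COX7A1 stayed below the filter, at 5.88 to 6.51 and 6.63 to 6.96 in embryoid bodies, against 6.26 and 6.73 in undifferentiated cells. COX7B2 and COX8C, also below it, read 5.34 to 5.66 and 6.44 to 6.97, against 5.48 and 6.70, and ATP5MGL read 7.08 to 7.38, against 7.02. Differences between the isoforms of a family were not tested.

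Both days showed the decrease. Their contrasts subtract the same undifferentiated array within the same fit, so a member lower at both days is not supported by separate evidence. Relative to undifferentiated cells, 34 members were lower and NDUFS4 higher at day 7 (median -0.31, with 13.9% of all genes lower), and 39 members were lower and 0 higher at day 21 (median -0.34, with 21.2% of all genes lower). At an unadjusted p below 0.05, 46 and 49 of 73 members passed at day 7 and day 21, against 4288 and 5789 of the 12254 genes. In all, 25 members were lower at both days, among them NDUFB10 (-0.78 at day 7 and -0.70 at day 21), NDUFA8 (-0.64 and -0.68), NDUFS7 (-0.50 and -0.65) and COX7A2 (-0.62 and -0.52). Another 9 passed at day 7 and not at day 21, and 14 at day 21 and not at day 7. The contrast between the days itself was called for 7 of those 9, which were higher at day 21 than at day 7, and for 8 of those 14, which were lower. Shares of all genes with these call patterns are not given here, so the counts have no background. In the untreated arrays alone, 6 of 73 members were at least 1.5-fold lower than in undifferentiated cells at day 7, where 4.40% of all genes were, and 10 of 73 at day 21, where 8.70% were.

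The count at day 7 depends strongly on single arrays: it was 5 without the untreated day 7 array, 15 without the FA array at day 7 and 23 without the ethanol plus FA array at day 21, while the median stayed between -0.32 and -0.30. Calls over all genes fell as well: without the untreated day 7 array 3.04% were lower at day 7, against 13.9% in the full fit. For both days together the count was 24 without the untreated day 7 array and 26 without the FA array at day 7, with a median between -0.34 and -0.31 over all left-out embryoid body arrays. Of all genes, 10.3% were then lower without the untreated day 7 array, against 17.2% in the full fit. For the runs without the FA array at day 7 or the ethanol plus FA array at day 21, shares over all genes are not given here. The member counts of those runs thus have no background. Pluripotency markers, summed over the list on the linear scale, read 15.06 to 15.13 (log2) at day 7 and 13.84 to 14.08 at day 21, against 15.26 in undifferentiated cells, and neural markers 10.60 to 10.72 and 12.23 to 12.29, against 10.61. The subunit medians of single arrays lay between -0.32 and -0.23 at day 7 and between -0.31 and -0.26 at day 21. The lists for mesenchyme (10.01 to 10.14 and 10.64 to 10.81, against 10.03), heart and skeletal muscle (10.32 to 10.45 and 9.97 to 10.15, against 10.52), endoderm and liver (9.99 to 10.20 and 9.84 to 10.05, against 10.03) and endothelium and blood (8.78 to 8.92 and 9.13 to 9.29, against 8.87) moved less than the pluripotency list at day 21. The filter was passed by 4 of 5 mesenchyme, 2 of 7 muscle, 3 of 6 endoderm and 1 of 5 endothelium genes. Dim genes thus enter these sums, and a small change in a sum does not show that a lineage stayed the same. The part of changing cell types in the subunit levels was not tested.

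**Figure D2:**
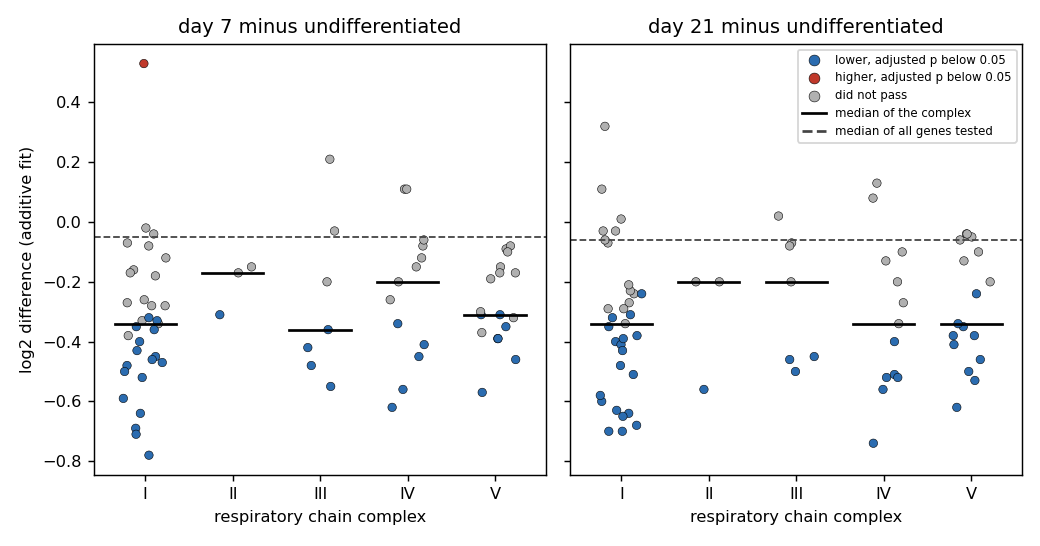
Log2 difference of each tested subunit gene from undifferentiated cells at day 7 (left) and day 21 (right) in the additive fit, by complex. Points are genes, coloured by call, solid bars are complex medians and the dashed line is the median of all genes tested; all complex medians lie below the dashed line at both days.

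Between day 21 and day 7 the subunits split in both directions. In embryoid bodies 12 members were higher and 17 lower at day 21 than at day 7 in the limma fit, with a median of -0.01, which over 4 matched pairs compares with 26.3% of all genes higher and 22.6% lower. Of the members, 16.4% were thus higher and 23.3% lower, below and close to those backgrounds. Centring the arrays on their medians gave 15 higher and 9 lower members, where 31.6% of all genes were higher and 17.2% lower. With the arrays without FA alone, 8 members were higher and 6 lower. That run has fewer arrays and its share over all genes is not given here, so these counts have no background.

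UQCRQ, a small coenzyme Q-site subunit of complex III, read 9.74, 9.67, 9.66 and 9.74 in day 21 embryoid bodies with ethanol plus FA, ethanol, FA and no addition, against 9.38, 9.29, 9.33 and 9.30 at day 7. The days did not overlap, and the day 21 values were those of undifferentiated cells (9.66) or slightly above. It rose by 0.38 ± 0.05 (limma adjusted p = 4.80e-04, higher in 4 of 4 pairs). NDUFB6 (0.37 ± 0.09, limma adjusted p = 0.011), NDUFS3 (0.33), UQCR10 (0.29) and NDUFA10 (0.27) also rose. NDUFB6 read 8.14, 8.30, 8.14 and 8.37 at day 21, against 8.09, 7.79, 7.78 and 7.83 at day 7, so its increase was 0.05 in the pair with ethanol plus FA and 0.36 to 0.54 in the other 3. UQCR10 did not pass with the arrays without FA alone (0.21, adjusted p = 0.104).

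COX8A, the ubiquitous form of subunit 8 of complex IV, read 11.07, 10.98, 11.01 and 10.95 at day 21, against 11.35, 11.47, 11.34 and 11.44 at day 7 in the same order of conditions. It fell by 0.40 ± 0.06 (limma adjusted p = 6.31e-04, lower in 4 of 4 pairs), on top of its decrease from undifferentiated cells (11.73). SDHD read 11.04, 11.17, 10.94 and 11.07 at day 21, against 11.55, 11.47, 11.34 and 11.42 at day 7, and fell by 0.39 ± 0.05 (limma adjusted p = 5.74e-04); its own-chromosome cluster gave -0.27 (adjusted p = 0.0115). NDUFB9, COX7B and NDUFV2 fell by 0.35, 0.36 and 0.32. The call for COX7B was lost with centred arrays (-0.30, adjusted p = 0.055) and in 6 of the runs that left out an array, with adjusted p from 0.0501 to 0.0862. NDUFV2 did not pass with the arrays without FA alone (-0.29, adjusted p = 0.0611).

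Members of the same complex went in opposite directions between the days, as did genes at large (26.3% of all genes higher and 22.6% lower). The shares were 18.2% and 27.3% in complex I and 11.8% each in complex V. In complex I 6 rose and 9 fell, in complex II 0 and 1, in complex III 2 and 1, in complex IV 2 and 4, and in complex V 2 and 2. In complex III, UQCRQ and UQCR10 rose while UQCRH fell by 0.30. In complex IV, COX7A2L, known as a factor for respiratory supercomplexes, and COX7C rose by 0.23 and 0.19, while COX8A, COX7B, COX6C and COX6A2 fell. The undifferentiated array does not enter this contrast.

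**Figure D3:**
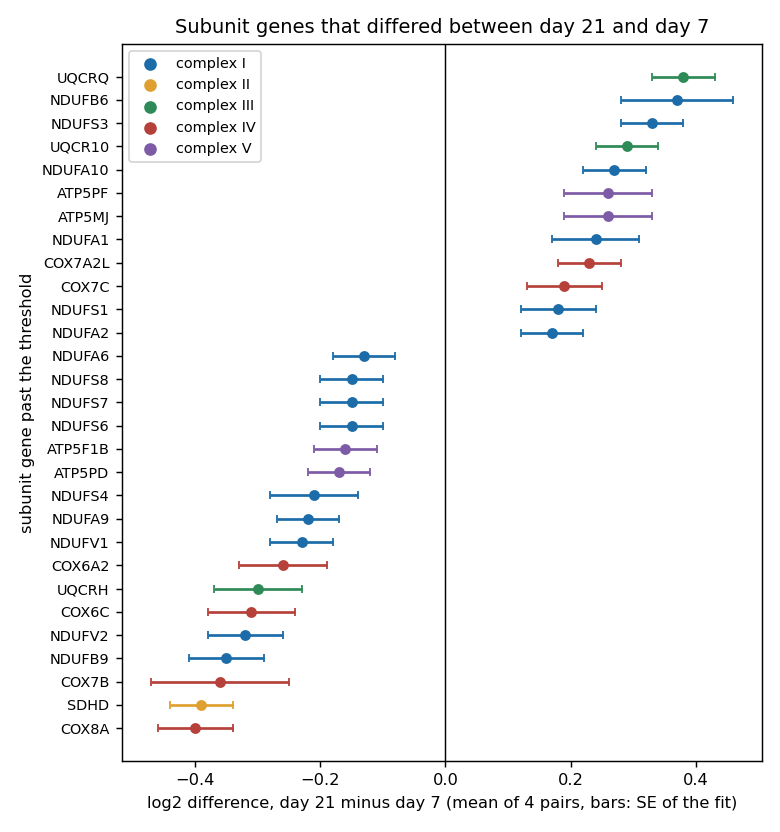
Log2 difference between day 21 and day 7 for the 29 subunit genes past the threshold, each the mean of 4 matched pairs, with bars for the SE of the fit. Colours give the complex, and genes of complexes I, III, IV and V lie on both sides of 0.

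Ethanol changed no subunit past the threshold. None of the 73 members was called in the limma fit over the 4 pairs that differ in ethanol alone, while 0.685% of all genes were, and 7 members had an unadjusted p below 0.05, against 2144 of the 12254 genes. The lowest adjusted p among members was 0.108. The median difference was 0.04, against 0.02 for all genes, and stayed between 0.03 and 0.06 when arrays were left out in turn. In 55 of 73 members the difference was above 0, as it was for 7232 of the 12254 genes. In 24 members (32.9%) all 4 pairs were above 0, which held for 18.5% of all genes.

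All 7 members with an unadjusted p below 0.05 in limma belong to complex I and had positive differences: NDUFA8, NDUFB2, NDUFS6, NDUFB9, NDUFB10, NDUFA12 and NDUFA2, from 0.19 to 0.12. For complex I this is 7 of 33 tested members, near the share of all genes (2144 of 12254). Complex medians were 0.08 for complex I, 0.11 for II, 0.00 for III, 0.05 for IV and 0.02 for V. NDUFA8 read 9.72 and 9.73 at day 7 and 9.64 and 9.71 at day 21 with ethanol, with and without FA, against 9.52, 9.53, 9.51 and 9.46 in the matched arrays without ethanol. The ethanol arrays lay above all arrays without ethanol, by 0.19 ± 0.05 on average, and still below undifferentiated cells (10.17). NDUFB2 and NDUFS6, both accessory subunits, had differences of 0.16 each (adjusted p = 0.195 and 0.191 in limma). At the other end were UQCRB (-0.13), NDUFS4 (-0.10) and UQCRH (-0.09), with adjusted p of 0.698, 0.5 and 0.554 in limma.

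The day 7 pair without FA, the comparison named in the study's design, has no test. None of the 73 members was 1.5-fold apart, against 2.82% of all genes, and the members ranged from -0.46 to 0.46 with a median of 0.08. COX4I2 read 7.81 with ethanol, against 7.36 without (0.46), but the same contrast with FA gave -0.12 and at day 21 0.10 and 0.02. COX4I2 exceeded the filter of 7.713 in this ethanol array alone and read 7.19 to 7.45 in all others. It was tested only through the array in which it is high, so its place at the top of this pair is not independent of the filter. NDUFA11 (0.30) and NDUFS6 (0.27) were next. UQCRB read 7.64 with ethanol, against 8.11 without (-0.46), and its other pairs gave 0.09 at day 7 with FA and 0.00 and -0.15 at day 21. COX7B was lower in this pair (-0.23) and higher in the other 3 (0.28 at day 7 with FA, 0.18 and 0.32 at day 21), and ATP5MJ likewise (-0.25, against 0.05, 0.10 and 0.08). The ethanol array of this pair is the one that correlated least with its day, and the part of that array in these single values was not tested.

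**Figure D4:**
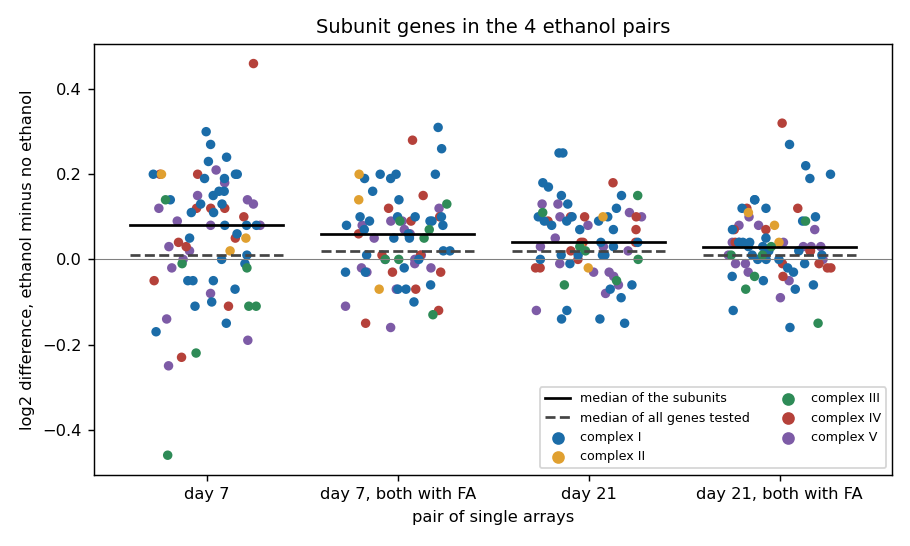
Log2 difference between ethanol and no ethanol for the 73 tested subunit genes in the 4 matched pairs of single arrays, coloured by complex, with the median of the subunits (solid) and of all genes tested (dashed). The subunit medians are 0.08, 0.06, 0.04 and 0.03, and the widest spread is in the day 7 pair without FA.

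FA gave no call among the subunits either. None of the 73 members and 0% of all genes were called in limma, with 0 members and 121 genes at an unadjusted p below 0.05. The median was 0.00 for the subunits. The values furthest from 0 were those of UQCRB (0.12), COX7A2 and NDUFB4 (0.09 each), COX6C (-0.11) and NDUFB10 and NDUFB3 (-0.10 each), each with an adjusted p of 1. UQCRB differed by 0.76 with FA at day 7 in the presence of ethanol, 0.21 without ethanol, and -0.31 and -0.17 at day 21, so its pairs disagreed in sign.

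No interaction passed for a subunit. The ethanol by day term was called for 0 members and 0.00816% of all genes, and the ethanol by FA and FA by day terms for 0 members and 0% of genes. At an unadjusted p below 0.05, limma gave 1 member and 917 of the 12254 genes for ethanol by day, 0 members and 100 genes for ethanol by FA, and 7 members and 1496 genes for FA by day, so no term had a higher share among the members. The last were led by UQCRB (-0.73, limma adjusted p = 0.403), whose response to FA was lower at day 21 than at day 7.

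Other genes of mitochondrial respiration were described by the same fit, in which 17.2% of all genes were lower and 11.0% higher with differentiation. Of the electron entry and mobile carrier genes, 9 of 11 tested were lower in embryoid bodies than in undifferentiated cells and 0 higher (median -0.38). Among them were ETFB of the electron transfer flavoprotein (-0.44) and CYCS, cytochrome c (-0.38). NDUFAB1, the mitochondrial acyl carrier protein and a complex I subunit (-0.60), and CYC1, cytochrome c1 of complex III (-0.42), were also lower. Both are chain subunits that the symbol rule did not take, and the list also holds the member ATP5IF1. It is thus not separate from the subunits. Of the genes of the citric acid cycle and pyruvate oxidation 11 of 17 were lower and 0 higher (median -0.35), led by PDHA1 (-0.60), MPC2, a mitochondrial pyruvate carrier (-0.54), and OGDH (-0.51). Coenzyme Q synthesis had 4 of 10 lower and 0 higher (median -0.23), led by COQ3 (-0.54).

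The shares of genes lower were 26.7% for complex I assembly factors and 35.7% each for assembly of complexes II to V and for regulators, against 17.2% of all genes. For complex I assembly factors 4 of 15 were lower and 0 higher (median -0.28): NDUFAF1 (-0.71), FOXRED1 (-0.70), TIMMDC1 (-0.43) and NDUFAF4 (-0.32). For assembly of complexes II to V 10 of 28 were lower (median -0.22), led by COX18 (-0.56), TACO1 (-0.54) and COA7 (-0.52), and 1 was higher, COX20 (0.63, limma adjusted p = 0.00199), a chaperone of the complex IV subunit COX2. Among regulators 5 of 14 were lower (median -0.17): PPRC1 (-0.75) and PPARGC1B (-0.50), both of the PGC-1 family, TWNK, the mitochondrial DNA helicase (-0.61), the nuclear receptor ESRRA (-0.44) and TFB1M (-0.35). The transcripts of the factors whose motifs were searched did not pass: NRF1 had 0.02, GABPA 0.07 and YY1 -0.02. PPARGC1A, the PGC-1 alpha gene, had 0.41 (adjusted p = 0.0805) over both days, and in limma it was higher at day 21 than in undifferentiated cells (0.58, adjusted p = 0.021) and than at day 7 (0.35, adjusted p = 0.0136). At day 7, 2 of 14 regulators were lower (14.3%, median -0.06), near the 13.9% of all genes.

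Genes linked to a switch away from respiration in low oxygen gave 6 of 12 higher and 1 lower (median 0.28), where 11.0% of all genes were higher. PDK1 and PDK3, kinases that inhibit pyruvate dehydrogenase, rose by 1.27 and 0.79, EGLN3, an oxygen-sensing hydroxylase, by 1.21, and BNIP3, BNIP3L and MXI1 by 0.74, 0.62 and 0.50. The low-oxygen isoforms within the chain did not: COX4I2 had 0.00 and COXFA4L2 -0.04, and HIGD1A, which also stands in the electron carrier list, fell by 0.40. Oxygen was not among the labelled conditions, and its part was not tested.

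**Figure D5:**
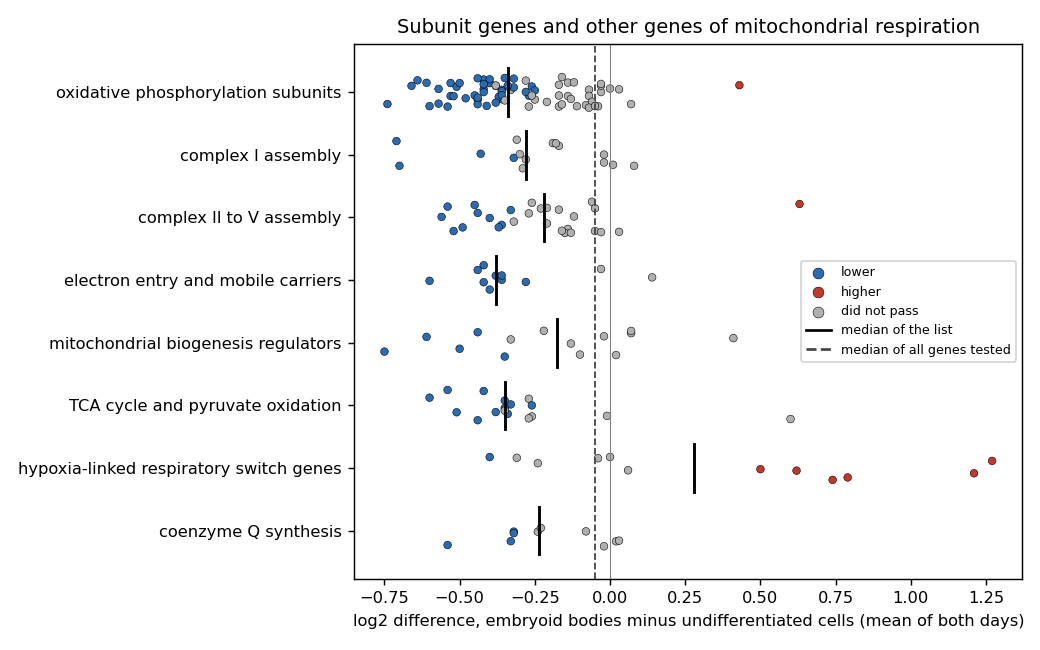
Log2 difference between embryoid bodies and undifferentiated cells for the tested subunit genes and 7 lists of respiration genes, some of which also hold subunits. Points are genes coloured by call, bars are list medians and the dashed line is the median of all genes tested (-0.05); only the hypoxia-linked list has its median above 0.

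Between day 21 and day 7, where 26.3% of all genes were higher and 22.6% lower, the lists held calls in both directions: 4 higher and 2 lower for complex I assembly, 7 and 3 for complexes II to V assembly, 4 and 3 for electron entry, 2 and 7 for regulators, 3 and 9 for the citric acid cycle, 4 and 2 for hypoxia-linked genes and 1 and 3 for coenzyme Q synthesis. For complex I assembly (26.7% higher and 13.3% lower) and assembly of complexes II to V (25% and 10.7%) these shares were near or below the background. Among regulators PPARGC1B fell by 0.58 and TFB1M by 0.54, and in the citric acid cycle SUCLG1 rose by 0.57 while OGDH fell by 0.36. Ethanol and FA called 0 genes in each of the 7 lists. At an unadjusted p below 0.05, limma gave 0 genes of any list for FA. For ethanol it gave 5 of 12 hypoxia-linked genes, 7 of 28 assembly genes of complexes II to V, 1 of 15 of complex I assembly, 0 of 11 of electron entry, 2 of 14 regulators, 2 of 17 of the citric acid cycle and 1 of 10 of coenzyme Q synthesis, against 2144 of all 12254 genes.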

How the data were processed

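Per the labels' protocols, Trizol was used to isolate total RNA, from which biotinylated cDNA was prepared and hybridised. The deposited values are log2 expression values; per the submitters' processing notes, the authors obtained them by RMA with version 1.3.1 of Affymetrix Expression Console. RMA includes quantile normalization, so a shift of most transcripts would not be seen. The log base was inferred from the values (2.49 to 14.31).

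Genes were named from the platform annotation. Genes whose highest value did not exceed 7.713, the median of all values, were not tested. limma 3.58.1 (R 4.3.3) fitted ethanol, FA, day and an undifferentiated term additively over 9 arrays, with 4 residual degrees of freedom (3 with an interaction) and a prior of 3.94. P-values were adjusted over 12254 genes (threshold 0.05). The differentiation difference is the fitted untreated embryoid body level, estimated from all 8 arrays, minus the undifferentiated array. With 1 array per condition, p-values reflect nothing but the spread among these arrays, possibly technical, and the number of arrays limits the precision. The fit was tested on simulated data.

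The genes named are, for each effect, the 5 members with the largest change in each direction past the threshold (or the 3 largest as values), the brightest and dimmest of each complex, isoform families, the 3 largest of the day 7 ethanol pair and up to 3 genes of each pathway list. Others were chosen after their values were seen. Members and lists were chosen with earlier results of these data known. Alternatives covered the filter, clusters, centring, the prior, members, model terms and left-out arrays; the own-chromosome cluster was added after seeing the data.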

Additional observations from a re-analysis of the deposited data

How the results depend on the processing

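The counts of subunits past the threshold (42 for differentiation, 35 to day 7, 39 to day 21, 29 for day, 0 for ethanol, FA and each interaction) stayed within 1.5 times under other filters, cluster choices, centring, a trended prior and a stricter membership. With centred arrays the median day difference was 0.05 in place of -0.01, and members lower at day 21 numbered 9 in place of 17. The share of all genes lower at day 21 was then 17.2% in place of 22.6%. The medians of the other effects kept their sign or stayed at 0.00. Leaving out embryoid body arrays in turn gave 24 to 48 calls for differentiation, 5 to 43 to day 7, 29 to 46 to day 21 and 17 to 29 for day, and 0 for ethanol and FA. The day count was 17 without the untreated day 7, untreated day 21, FA day 7 or ethanol plus FA day 21 array, 18 without the ethanol day 21 array and 14 with the arrays without FA alone. Such runs have fewer samples, and calls over all genes moved too: without the untreated day 7 array 3.04% were lower at day 7, against 13.9%. Between the days, 21.1% of all genes were higher and 16.7% lower in that run, against 26.3% and 22.6% in the full fit. Median differences ranged from -0.34 to -0.31, -0.32 to -0.30, -0.34 to -0.31, -0.03 to 0.00, 0.03 to 0.06 and -0.01 to 0.00 for differentiation, day 7, day 21, day, ethanol and FA. Of single values, those of 2 members that did not pass turned sign: UQCRB for differentiation without the untreated day 21 array (-0.02, up to 0.15 without other arrays), for ethanol without the ethanol day 7 array (0.04, down to -0.28 without others) and for FA without the ethanol (-0.05) or ethanol plus FA (-0.02) day 7 array (up to 0.25 without others), and COX7C for differentiation with centred arrays (-0.01); the cause was not tested. No paired analysis was possible because the labels number no replicates; arrays matched in day, ethanol or FA already enter the fit through its terms. The undifferentiated array cannot be left out of a differentiation result.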
